A study of Mus musculus with 4 samples.

Results

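Hk1, Hk2, Ldha, Slc16a1, Acot7, Oat, Cat, Mgst1 and Parp3 are 9 enzyme and transporter genes that mature beta cells normally keep at a low level, a class known as the disallowed genes. Methylated DNA was examined over and just before these genes in islets of WT and βRapKO mice. A methylated region was assigned to a gene when it overlapped the gene or the 2 kb before its 5′ end, in the GENCODE annotation of GRCm38 (mm10). By this rule 48 of 186169 regions belonged to the 9 genes, which were 9 of 21951 protein-coding genes.

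A beta cell reads blood glucose by burning it in mitochondria, so that ATP rises with glucose and insulin is released. The high-affinity hexokinases (Hk1, Hk2), lactate dehydrogenase A (Ldha) and the lactate and pyruvate carrier MCT1 (Slc16a1) would allow metabolism at low glucose, let pyruvate leave as lactate or let outside pyruvate in, and are kept low. The other genes act elsewhere in metabolism. Acot7 encodes an acyl-CoA thioesterase, Oat the mitochondrial ornithine aminotransferase, Cat the peroxide-degrading enzyme catalase, Mgst1 a microsomal glutathione transferase and Parp3 an ADP-ribosyltransferase of the DNA damage response. Methylation of CpG sites at a CpG-rich start is commonly linked to silencing, whereas methylation inside the body of a transcribed gene is common.

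In MeDIP-seq an antibody against methylated cytosine pulls down sheared DNA, and tags, the sequenced fragment ends, pile up at clusters of methylated CpG. Islet DNA came from mice 8 weeks old, of C57BL/6 background by the labels, and gave 4 libraries, 2 from WT mice (Raptor lox/lox) and 2 from βRapKO mice, which carried the same floxed alleles and lacked Raptor in beta cells. The line that brought in Cre was of mixed C57BL/6J:129/SvJ origin, and mice of both genotypes came from crosses with it. Raptor (gene symbol Rptor) is a core subunit of the kinase complex mTORC1. According to the study's methods Cre was driven by the rat insulin promoter and the WT mice were littermates without Cre, so that Cre itself and the loss of Raptor cannot be told apart. Islets also hold cells other than beta cells, and a mark that is present in fewer cells cannot be told apart from one that is weaker in each cell. The labels do not say how many mice gave each library, and p-values measure only the spread between these libraries.

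The authors called peaks in each library without a control library. Library size, the tags left after removal of duplicates, was between 25585533 and 31330751, and the number of peaks was 121186 and 151093 in WT and 117638 and 119685 in βRapKO. Peaks of the 4 libraries that overlapped by at least 1 bp were joined into regions. Tags are given as CPM, tags per 1000000 of library size. Tag density is CPM per kb of the library's own peak in the region, or of its peaks summed where it had more than 1. Where no peak was called the tags are not known, which is not a measurement of 0. Between 29.2% and 35.4% of a library's tags fell in peaks, more in each WT library than in either βRapKO library, and the median peak was 1059 and 938 bp wide in WT and 1102 and 1150 bp wide in βRapKO. These differences in peak calling run through every comparison below, and their part in the results was not tested. Exon 6 of Rptor (chromosome 11, 119756239 to 119756414), which is flanked by loxP sites in the commonly used floxed allele, had no peak in any library, although the gene had 36 regions, so that the peaks give no check of the genotype labels.

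Peaks were rare at the starts of the 9 genes, as they were at starts over all protein-coding genes. Some start windows of the same gene overlap one another, so they are not independent. Among 29 windows from 250 bp before to 50 bp after the start of a protein-coding transcript, 1 overlapped a region, beside 8.22% of such windows over all protein-coding genes. The exception was Hk1 region 3 (regions are numbered along each gene from its 5′ end), which lay over an internal start of Hk1 at base 62358362 and was called in βRapKO replicate 1 alone, with 44 tags. Of the 29 windows, 10 in 7 genes held 15 or more CpG sites and none of these overlapped a region in any library, beside 2.42% of such CpG-rich windows over all genes and 13.3% of windows with fewer CpG sites. The letters just before a start show how far the genes differ there. Each is read 5′ to 3′ along the gene from GRCm38, with every CpG in capitals, and both stand also in RefSeq's promoter table.
Slc16a1, 250 bases before the start at 104638664, chr3:104638414-104638663, + strand, 37 CpG sites: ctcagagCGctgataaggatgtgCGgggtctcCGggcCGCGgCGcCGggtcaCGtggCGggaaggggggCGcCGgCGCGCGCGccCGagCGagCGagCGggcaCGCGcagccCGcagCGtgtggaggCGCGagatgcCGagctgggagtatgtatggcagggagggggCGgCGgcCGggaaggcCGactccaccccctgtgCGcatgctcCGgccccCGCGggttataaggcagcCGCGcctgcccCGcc
Hk1, 250 bases before the start at 62379908, chr10:62379909-62380158, - strand, 1 CpG site: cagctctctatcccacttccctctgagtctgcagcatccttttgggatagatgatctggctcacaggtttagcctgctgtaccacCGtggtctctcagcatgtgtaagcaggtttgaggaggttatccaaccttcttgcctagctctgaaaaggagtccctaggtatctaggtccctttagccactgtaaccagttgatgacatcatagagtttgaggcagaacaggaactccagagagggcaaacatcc

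The Slc16a1 start is packed with CpG sites, whereas the outermost Hk1 start has a single one. RefSeq also lists an internal Hk1 start at 62340421, whose window held 20 CpG sites and overlapped 0 regions. Absence of a peak says only that tags did not pass the caller's threshold there, in WT as in βRapKO islets. No start of Hk2 (18 and 25 CpG sites), Oat (22) or Cat (10 and 14) had a peak in any library, and the 5 windows of Ldha (6 to 32) had none either.

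**Figure D1:**
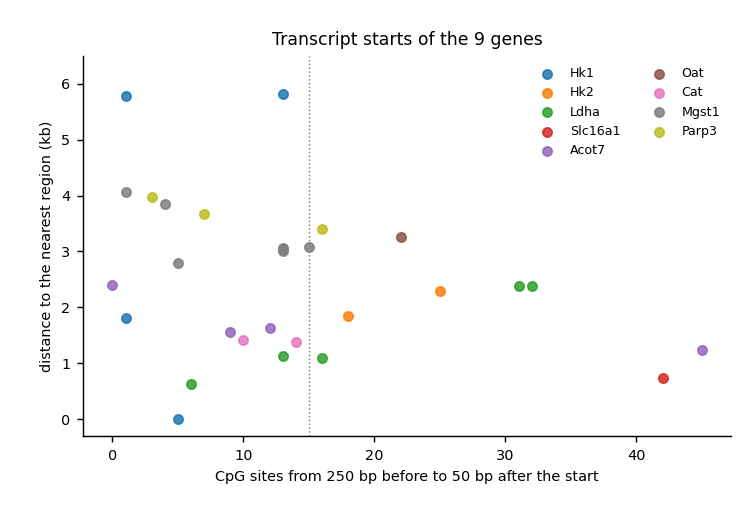
Each point is 1 annotated transcript start of a protein-coding transcript of the 9 genes, placed by the CpG sites in the window from 250 bp before to 50 bp after it (horizontal axis) and by the distance in kb to the nearest region with a peak in any library (vertical axis). The dotted line stands at 15 CpG sites, and 1 point, an internal Hk1 start with 5 CpG sites, lies at a distance of 0.

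The rule admitted only regions in a gene or in the 2 kb before it, and 45 of the 48 overlapped a gene itself. Of the 48 regions, 24 covered an exon of the principal transcript, 22 of them coding sequence, and 19 lay in an intron alone. Their median CpG density was 1.84 sites per 100 bp, beside 1.60 over all regions. The 150 bases centred on the mean position of a region's peak summits were denser than the whole region in 35 of 48, with a median of 2.67. At Hk2 region 7 the summits spread over 3245 bp, so such a window need not hold a summit. Neither the summit values nor the exon and intron counts were computed over all regions. The stretches printed next are centred in the same way. The first is from Hk1 region 13, whose peaks changed most in width, and lies in the part that the peaks of all 4 libraries shared. The summit of βRapKO replicate 1, at 62290047, falls outside that stretch of letters. The others are an Acot7 summit that fell within 1 bp in all 4 libraries, and the Hk2 exon and the Cat intron with a peak in WT only. Each is 150 bases from GRCm38, read along the gene, with CpG in capitals.
Hk1 region 13, chr10:62290083-62290232, - strand, 6 CpG sites: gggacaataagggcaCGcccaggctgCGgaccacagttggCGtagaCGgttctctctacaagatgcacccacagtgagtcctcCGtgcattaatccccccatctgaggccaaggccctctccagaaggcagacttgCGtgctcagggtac
Acot7 region 2, chr4:152180361-152180510, + strand, 6 CpG sites: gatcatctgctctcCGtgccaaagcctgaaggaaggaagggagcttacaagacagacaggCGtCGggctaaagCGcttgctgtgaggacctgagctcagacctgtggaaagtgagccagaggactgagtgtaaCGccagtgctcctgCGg
Hk2 region 5, chr6:82736624-82736773, - strand, 8 CpG sites: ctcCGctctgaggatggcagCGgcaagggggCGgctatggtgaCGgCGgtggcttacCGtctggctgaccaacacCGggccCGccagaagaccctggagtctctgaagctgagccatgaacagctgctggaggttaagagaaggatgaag
Cat region 1, chr2:103483149-103483298, - strand, 3 CpG sites: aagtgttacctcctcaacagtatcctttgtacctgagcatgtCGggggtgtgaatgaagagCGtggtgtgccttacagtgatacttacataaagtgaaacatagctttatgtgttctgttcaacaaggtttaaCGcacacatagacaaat

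Regions were spread unevenly over the genes. Hk1 had 18, Acot7 11, Hk2 7, Cat 5 and Slc16a1 3, whereas Ldha, Oat, Mgst1 and Parp3 had 1 each, beside a median of 3 per protein-coding gene with a region. Every library called 21 regions (43.75%, beside 40.3% of all regions), in 7 genes. Mgst1 and Parp3 had no such region. A peak shared by the WT libraries and missing from both βRapKO libraries was found at 5 regions (10.4%, beside 4.16% of all regions), and the reverse at 0 (beside 1.58%). The remaining 22 regions had mixed calls, 10 of them in a single library, 5 in βRapKO replicate 1, 2 in βRapKO replicate 2, 1 in WT replicate 1 and 2 in WT replicate 2. Per library, peaks were called at 34 and 37 regions in WT and at 33 and 31 in βRapKO.

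**Figure D2:**
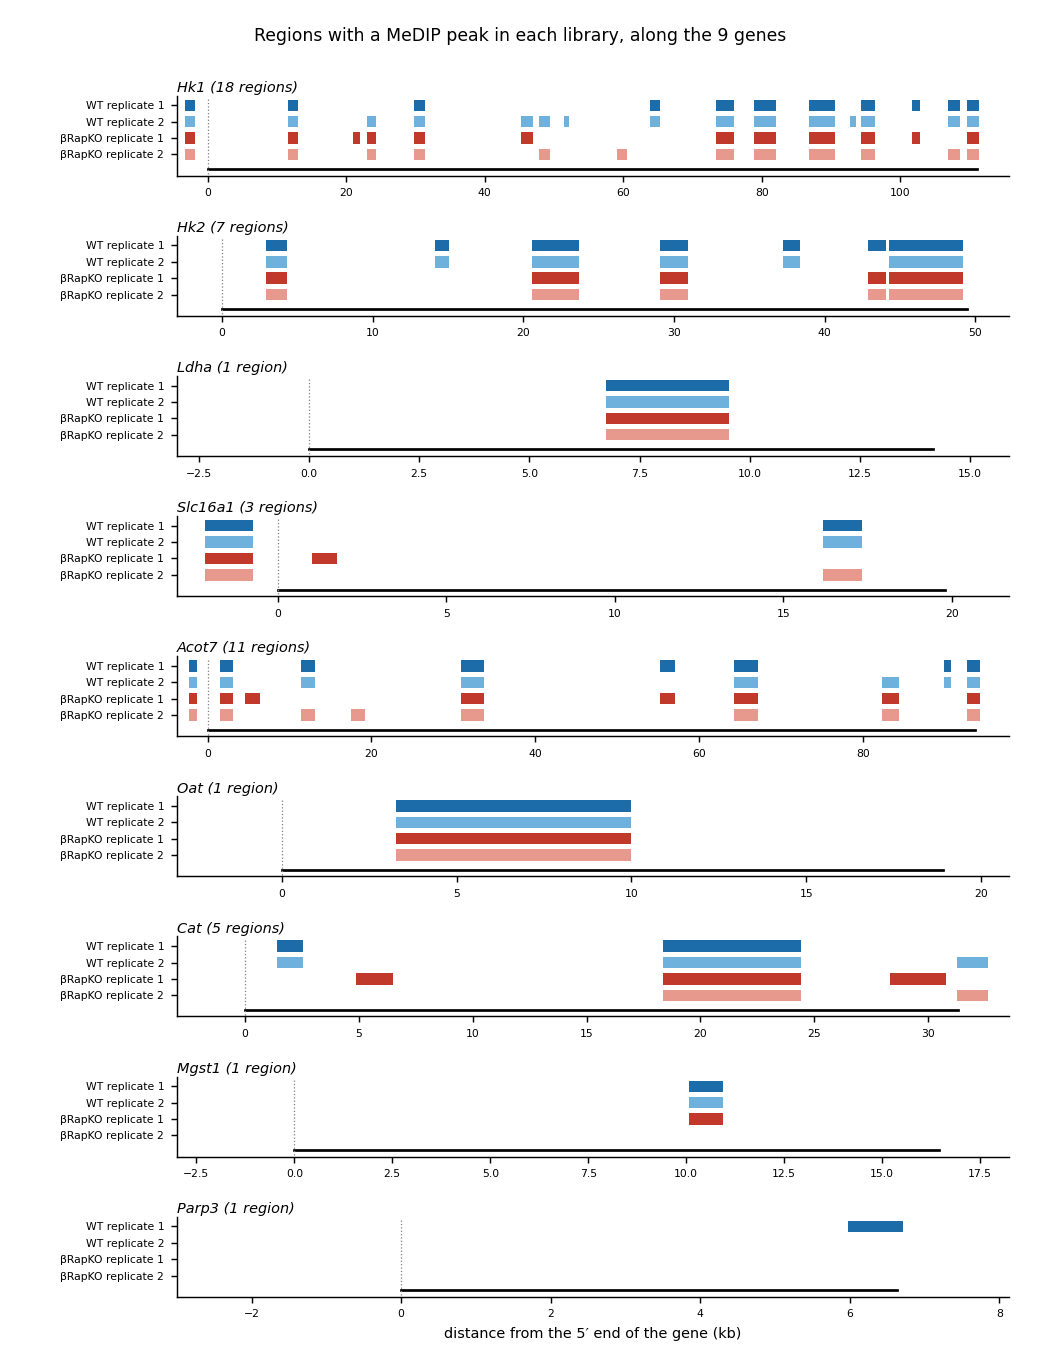
Each panel is 1 gene, drawn from its annotated 5′ end at 0 (dotted line) to its 3′ end (black line), with the distance in kb on the horizontal axis and a row for each of the 4 libraries. A bar spans a merged region in every library that had a peak in it, so bars show where peaks were called and not how wide or strong they were. Both WT rows and no βRapKO row are filled at 5 regions, in Hk1, Hk2, Acot7 and Cat, and the reverse occurs at none.

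For the glucose-phosphorylating enzyme Hk1 (chromosome 10, 62268855 to 62379908, - strand), 8 of 18 regions were called in every library. Mean CPM was lower in βRapKO at 4 of them and higher at 4, and density was lower at all 8. The region with the most tags was region 12 over exon 7 of 22 (62297882 to 62301007), at 7.35 and 6.35 CPM in WT and 6.64 and 8.09 CPM in βRapKO. Values of the 2 genotypes interleaved, and the fitted log2 fold-change of tags was 0.11 ± 0.153 (SE, edgeR adjusted p = 0.934, n = 2 libraries per genotype). Its density was 2.46 and 3.07 in WT and 2.63 in both βRapKO libraries, a log2 fold-change of -0.07 ± 0.139 (edgeR adjusted p = 0.863).

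Hk1 region 13 (62289377 to 62293037), over the coding exons 11 to 13, was different, and its 2 readings went opposite ways. It held 5.63 and 6.03 CPM in WT and 6.81 and 8.40 CPM in βRapKO, so that both βRapKO libraries held more tags than both WT libraries (log2 fold-change 0.38 ± 0.152, edgeR adjusted p = 0.858). Its density was 4.66 and 4.51 in WT and 2.07 and 2.29 in βRapKO, lower in both βRapKO libraries (log2 fold-change -1.07 ± 0.131, edgeR adjusted p = 0.116). By p, this density difference ranked 1 of 75052 regions tested, and 7 regions shared the same adjusted p, which did not pass the FDR. The peaks also differed in width. They were 1208 and 1337 bp in WT and 3286 and 3661 bp in βRapKO, a ratio of mean widths of 2.73, and the WT and βRapKO peaks shared a stretch of 1168 bp from 62289474 to 62290641. All 4 summits lay in that shared stretch, with a fold enrichment over the local background of 8.25 and 8.85 in WT and 6.72 and 6.92 in βRapKO. The tags that fell inside the shared stretch are not known, since the files give 1 count per peak. Density is tags divided by the library's own peak width, so that a wider peak lowers it unless tags rise as much. Peaks more than 2-fold wider in βRapKO were found at 523 regions (0.697% of those tested), where the median log2 ratio was 0.70 by tags and -0.49 by density.

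**Figure D3:**
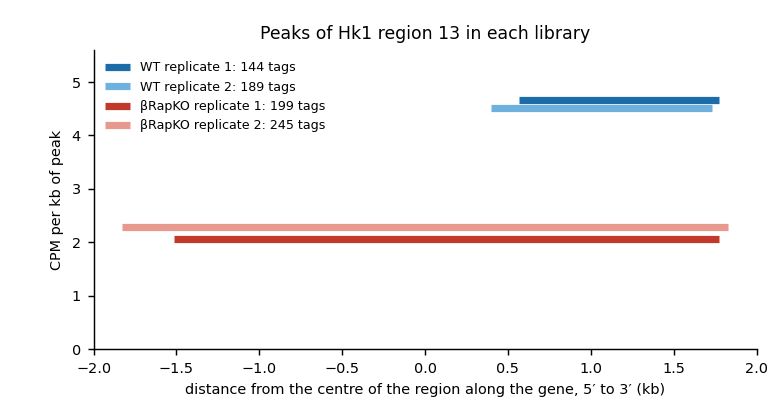
Each bar is the peak of 1 library at Hk1 region 13, drawn from its first to its last base (horizontal axis, distance in kb from the centre of the region along the gene) at the height of its density in CPM per kb of peak (vertical axis). Both βRapKO peaks reach far further in the 5′ direction than the WT peaks, with more tags (199 and 245, beside 144 and 189) and a lower density.

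At the other Hk1 regions called in every library the differences were smaller. Region 2 in intron 1 held 3.40 and 3.70 CPM in WT and 3.76 and 4.08 CPM in βRapKO, so that the groups did not overlap by tags, while its density, 2.35 and 3.42 in WT and 3.09 and 2.64 in βRapKO, overlapped. Region 1, upstream of the gene and shared with the window of the neighbouring hexokinase gene Hkdc1, held 2.11 and 2.36 CPM in WT and 2.16 and 2.19 CPM in βRapKO, with a density of 2.03 and 2.01 in WT and 1.67 in both βRapKO libraries. Its nearest base was 1.81 kb from the gene, the farthest of the upstream regions inside the 2 kb limit. Regions 5, in intron 4, and 11, over exon 6, overlapped by tags but were lower in both βRapKO libraries by density. Region 5 held 2.42 and 3.06 CPM in WT and 2.7 and 2.3 CPM in βRapKO at a density of 1.86 and 1.99 in WT and 1.68 and 1.56 in βRapKO. Region 11 held 5.67 and 5.84 CPM in WT and 5.68 and 5.18 CPM in βRapKO at a density of 2.28 and 2.8 in WT and 2.17 and 2.12 in βRapKO. Regions 15, over exons 15 and 16, and 18, over the last exon, overlapped in both units. Region 15 held 3.79 and 4.4 CPM in WT and 3.87 and 3.84 CPM in βRapKO, with a density of 1.91 and 2.36 in WT and 1.86 and 1.92 in βRapKO. Region 18 held 3.28 and 3.89 CPM in WT and 3.11 and 4.52 CPM in βRapKO, with a density of 2.58 and 2.86 in WT and 2.13 and 2.67 in βRapKO. Regions 3, 4 and 5 also lay in Hk1os, an antisense transcript, and methylated DNA has no strand in this assay.

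Hk2, the inducible hexokinase of muscle and fat (chromosome 6, 82725025 to 82774454, - strand), had 7 regions, and 4 of them were called in every library. All 4 had a lower mean in βRapKO by tags and by density. The one with the most tags, region 7 over exons 16 to 18 (82725270 to 82730183), held 5.78 and 10.7 CPM in WT and 4.45 and 7.10 CPM in βRapKO. The groups overlapped by tags (log2 fold-change -0.52 ± 0.312, edgeR adjusted p = 0.864) but not by density, which was 2.60 in both WT libraries and 2.10 and 1.81 in βRapKO (log2 fold-change -0.43 ± 0.133, edgeR adjusted p = 0.262). Tags at this region followed the summed width of a library's peaks there. That was 2223 bp in 1 peak and 4128 bp in 3 peaks in WT. In βRapKO it was 2117 bp in 2 peaks and 3924 bp in 1 peak. Without WT replicate 2 the log2 fold-change by tags was -0.0032.

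Hk2 region 4 over exons 4 and 5 (82743530 to 82745401) was the only region of the 21 called in every library whose groups were apart in the same direction in both units. It held 1.99 and 3.06 CPM in WT and 1.61 and 1.75 CPM in βRapKO (log2 fold-change -0.61 ± 0.253, edgeR adjusted p = 0.858). Its density was 2.02 and 1.76 in WT and 1.60 and 1.57 in βRapKO (log2 fold-change -0.23 ± 0.203, edgeR adjusted p = 0.644). The fold-change by tags rested in part on WT replicate 2, without which it was -0.25, and with library size taken as the tags in peaks the density difference was -0.05. Region 3 in intron 2, at 6.18 and 6.42 CPM in WT and 5.44 and 6.34 CPM in βRapKO, overlapped by tags and by density (2.08 and 2.28 in WT, 1.78 and 2.14 in βRapKO). Region 1 in intron 1, at 1.41 and 2.33 CPM in WT and 1.51 and 1.68 CPM in βRapKO, overlapped by tags, but its density of 1.23 and 2.02 in WT and 1.14 and 1.21 in βRapKO was lower in both βRapKO libraries. Region 6 over exons 14 and 15 had a peak of 67 to 85 tags in every library except WT replicate 2.

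In the handling of pyruvate and lactate, Ldha (chromosome 7, 46841475 to 46855627, + strand) had 1 region, over exons 3 to 5 (46848219 to 46851011), with 5.51 and 5.90 CPM in WT and 4.76 and 5.69 CPM in βRapKO. The groups overlapped, with a log2 fold-change of -0.13 ± 0.159 (edgeR adjusted p = 0.919). Its density was 2.06 and 2.2 in WT and 1.89 and 2.06 in βRapKO, lower in βRapKO with the nearest libraries alike to 3 digits (log2 fold-change -0.11 ± 0.14, edgeR adjusted p = 0.754). Slc16a1 (chromosome 3, 104638668 to 104658462, + strand) had its only region in all 4 libraries upstream of the CpG-rich start printed above, 0.74 kb before it (104636507 to 104637928). It held 1.95 and 1.66 CPM in WT and 1.81 and 2.33 CPM in βRapKO (log2 fold-change 0.20 ± 0.218, edgeR adjusted p = 0.909) at a density of 1.66 and 1.44 in WT and 1.3 and 1.7 in βRapKO (-0.05 ± 0.219, edgeR adjusted p = 0.943). Slc16a1 region 3 over exon 5 had a peak in every library except βRapKO replicate 1, at 37, 43 and 51 tags, and region 2 in intron 1 in βRapKO replicate 1 alone, at 32 tags.

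Acot7, whose enzyme splits fatty acyl-CoA into fatty acid and CoA (chromosome 4, 152178134 to 152271855, + strand), had 11 regions, 5 of them in all 4 libraries. The mean was lower in βRapKO by tags at 1 of these and by density at 3. Region 6 in intron 2 (152209046 to 152211876) held the most tags, 4.26 and 2.39 CPM in WT and 5.13 and 4.59 CPM in βRapKO. Both βRapKO libraries were above both WT libraries (log2 fold-change 0.56 ± 0.263, edgeR adjusted p = 0.858), mostly through the low WT replicate 2, without which the log2 fold-change was 0.19. By density the same region was lower in both βRapKO libraries, at 1.91 and 1.96 in WT and 1.84 and 1.75 in βRapKO (log2 fold-change -0.10 ± 0.155, edgeR adjusted p = 0.796). Peaks were 2233 and 1222 bp wide in WT and 2795 and 2619 bp wide in βRapKO.

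Acot7 region 8 in intron 6 held 3.91 and 3.16 CPM in WT and 3.32 and 4.66 CPM in βRapKO, with a density of 2.29 and 2.76 in WT and 2.16 and 1.59 in βRapKO (log2 fold-change -0.46 ± 0.190, edgeR adjusted p = 0.342). Region 11, at the 3′ end and shared with the window of Gpr153, went the other way by density, at 2.06 and 2.22 in WT and 3.15 and 2.21 in βRapKO, while its tags were 1.37 and 3.22 CPM in WT and 1.64 and 1.92 CPM in βRapKO. The groups overlapped in both units. Regions 1 and 2 lay on either side of the 5′ end of the gene, at 1.28 to 2.14 CPM in WT and 1.41 to 2.33 CPM in βRapKO. Region 2 is the one whose summits fell within 1 bp of each other, and its groups overlapped by tags (1.99 and 2.14 CPM in WT, 1.98 and 2.33 CPM in βRapKO). Called in 1 library alone were region 3, in βRapKO replicate 1, and region 5, in βRapKO replicate 2.

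Oat (chromosome 7, 132557478 to 132576398, - strand) had 1 region, which covered exons 2 to 4 (132566402 to 132573133) and also fell in the annotated span or upstream window of Fgfr2. It held 11.4 and 12.3 CPM in WT and 9.31 and 13.3 CPM in βRapKO. The βRapKO values lay on both sides of the WT values, and the log2 fold-change was -0.06 ± 0.169 (edgeR adjusted p = 0.968). The density was 2.05 and 2.47 in WT and 2.18 and 1.98 in βRapKO (log2 fold-change -0.13 ± 0.123, edgeR adjusted p = 0.672).

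For the peroxide-handling genes, Cat (chromosome 2, 103453849 to 103485160, - strand) had 5 regions, and every library called only region 3 over exon 9 (103460749 to 103466813). It held 7.39 and 16.5 CPM in WT and 6.57 and 15.97 CPM in βRapKO, so that libraries of the same genotype differed far more than the genotypes did (log2 fold-change -0.09 ± 0.446, edgeR adjusted p = 0.984). The peaks were 1799 and 6065 bp wide in WT and 1858 and 5635 bp wide in βRapKO, and the density was 4.11 and 2.72 in WT and 3.54 and 2.83 in βRapKO (log2 fold-change -0.05 ± 0.175, edgeR adjusted p = 0.912). At the 3′ end of Cat, region 5 had a peak in the second library of each genotype, with 71 and 70 tags, and region 4 in βRapKO replicate 1 alone, with 120 tags. Mgst1 (chromosome 6, 138140316 to 138156755, + strand) had 1 region over exon 3 (138150396 to 138151245), with 29 and 59 tags in WT, 54 tags in βRapKO replicate 1 and no peak in βRapKO replicate 2. Parp3 (chromosome 9, 106470322 to 106476949, - strand) had 1 region at its 3′ end (106470239 to 106470969), a peak of 39 tags in WT replicate 1 alone, with a caller's score of 50.85 on a scale of -10 log10(p) where the lowest peak kept had 50.0.

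**Figure D4:**
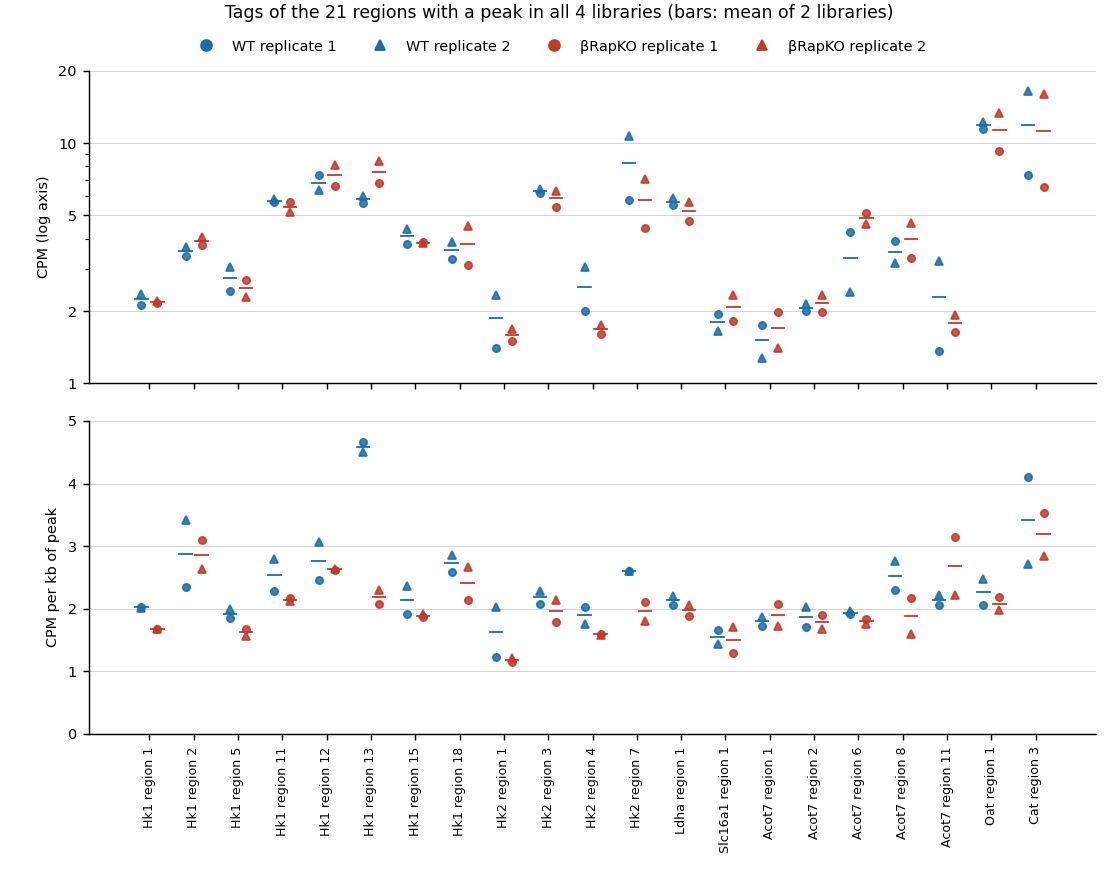
For each of the 21 regions called in every library, the upper panel shows CPM on a log axis and the lower panel CPM per kb of peak, with circles for replicate 1, triangles for replicate 2, blue for WT, red for βRapKO and a bar at the mean of the 2 libraries of a genotype. The groups overlap at 17 regions by tags and at 11 by density, and Hk1 region 13 stands out in the lower panel at 4.66 and 4.51 in WT beside 2.07 and 2.29 in βRapKO.

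Over the 21 regions called in every library, mean tags were lower in βRapKO at 12 and higher at 9 (57.1% lower, beside 61% of all 75052 regions tested), with a median log2 ratio of the means of -0.06, the same as over all regions at 2 decimals. The direction of the count depended on the libraries and on the scaling: without WT replicate 2 only 7 of 21 were lower, and with library size taken as the tags in peaks 4 were lower and 17 higher (19% lower, beside 32.3% of all regions), a change that moved the median of all regions from -0.06 to 0.10. The means were more than 1.5-fold lower at 1 region, Hk2 region 4 (beside 1.77% of all regions), and more than 1.5-fold higher at 0 (beside 1.29%). Both βRapKO libraries lay below both WT libraries at 1 region (beside 25.3%) and above them at 3, Hk1 regions 2 and 13 and Acot7 region 6 (beside 11.6%).

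By density, 19 of the 21 regions were lower in βRapKO and 2, Acot7 regions 1 and 11, higher (90.5% lower, beside 79.6% of all regions), with a median log2 ratio of -0.15, beside -0.17 over all regions. With tags in peaks as the library size 10 were lower and 11 higher, beside 50.7% lower of all regions. The mean was more than 1.5-fold lower at 1 region, Hk1 region 13 (beside 4.02%), and more than 1.5-fold higher at 0 (beside 0.12%). Both βRapKO libraries lay below both WT libraries at 10 regions (beside 41.1%) and above them at 0 (beside 4.54%). Mean peak width was larger in βRapKO at 16 regions and smaller at 5, with a median log2 ratio of 0.13, beside 0.10 over all regions, and at 9 of the 21 regions tags and density went in opposite directions.

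No region of the 9 genes passed an FDR of 0.05 with a 1.5-fold difference by edgeR's quasi-likelihood test, by tags or by density (beside 0% of all regions in each). At an unadjusted p under 0.05 edgeR counted 2 of the 21 regions by tags and 3 by density. Over all 75052 regions it counted 4363 and 9777. DESeq2, run on tags with its own scaling of the libraries, counted 0, without a share over all regions to set beside it. It passed 0 of the 21 regions at the FDR and fold-change, beside 2 of all 75052. By edgeR the smallest adjusted p among the 21 regions was 0.858 by tags and 0.116 by density. Libraries of 1 genotype also differed. The median absolute log2 ratio of replicate 2 to replicate 1 was 0.24 by tags in WT and 0.24 in βRapKO, and 0.20 and 0.15 by density. By tags it reached 1.24 at Acot7 region 11 in WT and 1.28 at Cat region 3 in βRapKO. The log2 ratios of the genotype means, each of 2 libraries, ran from -0.59 to 0.55 by tags. CPM was higher in replicate 2 than in replicate 1 at 16 of the 21 regions in each genotype.

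**Figure D5:**
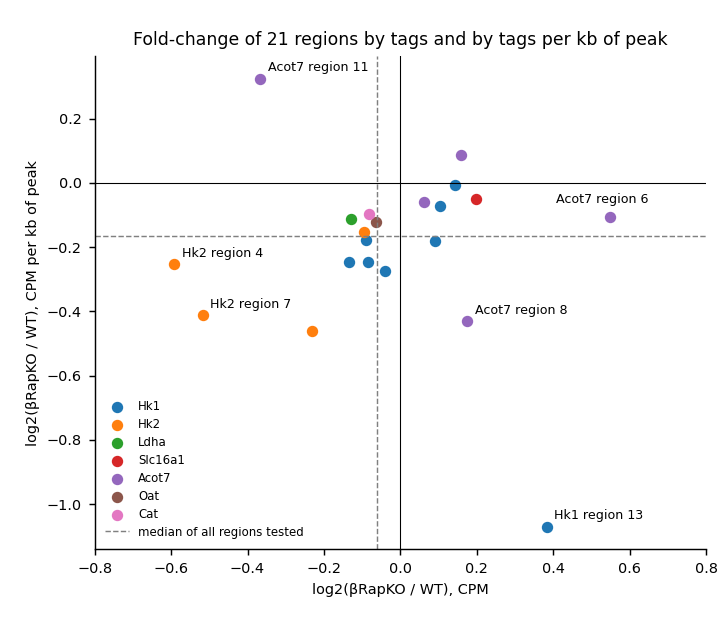
Each point is 1 of the 21 regions, coloured by gene, at its log2 ratio of βRapKO to WT means of CPM (horizontal axis) and of CPM per kb of peak (vertical axis), with dashed lines at the medians of all 75052 regions. The points lie between -0.59 and 0.55 by tags, and all but 2 lie below 0 by density, down to -1.07 at Hk1 region 13.

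The 5 regions with a peak in WT libraries only lay inside the 4 members with 5 or more regions. In Hk1 region 10 covered exon 5 (62314616 to 62315962), with 55 and 70 tags. In Hk2 region 2 covered exon 2 (82759382 to 82760317), with 37 and 28 tags, and region 5 covered exon 10 (82736111 to 82737212), the exon printed above, with 42 and 52 tags. Acot7 region 10 lay in intron 8 (152268003 to 152268880), with 46 and 57 tags, and Cat region 1 in intron 1 (103482599 to 103483748), with 50 and 75 tags. Genes with a region of this kind were 4 of 9, beside 19% of the 17052 protein-coding genes with a region. They were all 4 members with 5 or more regions, beside 38.1% of the 5999 protein-coding genes with 5 or more. No member had a region called in both βRapKO libraries only, beside 8.09% of genes.

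These were mostly weak peaks, and WT replicate 2 had the most peaks of all libraries. Their scores, -10 log10(p), were 57.15 to 130.91 with a median of 73.63, beside a median of 118.09 at the member regions called in every library. With only peaks of a score of at least 100, 27 regions of the 9 genes were left, of which 0 were WT only and 0 βRapKO only, beside 5.17% and 1.22% of all regions. With the same number of strongest peaks in every library, 4 were WT only (Hk1 region 10, Hk2 regions 2 and 5, Cat region 1) and 1 βRapKO only (Hk1 region 4, with 67 and 61 tags), beside 2.7% and 2.91% of all regions. Without βRapKO replicate 2 they were 8 and 5, beside 9.5% and 6.58% of all regions. Tags below the threshold in βRapKO are not known, so that these calls give no size of a difference.

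Genes that share a pathway with the members gave no region past the test either, in lists of 7 to 16 genes. Glycolysis below glucose phosphorylation had regions at 11 of 16 genes, and of those called in every library 13 were lower and 6 higher in βRapKO by tags (median log2 ratio -0.17), and pyruvate and lactate handling had 12 lower and 6 higher (median -0.11). In the NADH shuttles, which carry reducing power from glycolysis into mitochondria, 21 were lower and 12 higher (median -0.07). The other acyl-CoA thioesterases had 10 lower and 5 higher (median -0.12), ornithine and proline metabolism 10 and 3 (-0.16), peroxide and glutathione metabolism 7 and 2 (-0.16), and the other PARP enzymes 13 and 6 (-0.09). By density the lower and higher counts were 17 and 2, 14 and 4, 25 and 8, 14 and 1, 12 and 1, 7 and 2, and 15 and 4 in the same order of lists. Over all regions tested 61% were lower by tags (median -0.06) and 79.6% by density (median -0.17). These lists held 21 to 58 regions each. Regions called in both WT libraries only ranged from 0 to 4 per list and those called in both βRapKO libraries only from 0 to 1. Over all regions such calls made up 4.16% and 1.58%. The most WT-only calls were among the other PARP enzymes, at 4 of 50 regions, where Parp8 had 2 of its 16 regions. In every list 0 regions passed the FDR and fold-change, by tags or by density.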

How the data were processed

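MeDIP-seq libraries of islet DNA, 2 WT and 2 βRapKO, were put into groups as the labels state genotype and number. The authors aligned reads with Bowtie2 version 2.2.5 to mm10 (the labels also list mm9) and called peaks per library with MACS version 1.4.2 by the file headers, 0.14.2 by the labels, without a control, at a p cutoff of 1e-05, keeping 1 tag per position, against the background within 10000 bp. The authors deposited the raw count of tags in each peak. Its p, as 10 times −log10, and its fold enrichment were also deposited. Their MEDIPS windows were not used here. Peaks of different libraries were joined at 1 bp of overlap, and a library's tags and peak lengths were summed per region. Peak ends were checked against GRCm38 before GENCODE genes were assigned.

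Regions called in every library entered a test with edgeR 4.0.16 (R 4.3.3, quasi-likelihood, Benjamini-Hochberg over 75052 regions, FDR 0.05, fold-change 1.5), with library size as offset and, for density, library size times kb of peak, without centring. Alternatives were other library sizes, TMM factors, DESeq2 1.42.0, stricter or equally many peaks, another overlap, at least 50 tags, narrower and wider gene windows, a replicate block and leaving out each library. Members and lists were chosen with earlier results of these data known, so lists carry no test, and another list of genes and the sequence before another start are not reported here. Fitted values are given for the region with the most tags of each gene and for regions whose groups did not overlap in both units, and Acot7 region 8 was added after its values were seen. Python 3.11.15, pandas 2.3.3, NumPy 2.4.6 and matplotlib 3.10.9 were used.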

Additional observations from a re-analysis of the deposited data

How the results depend on the processing

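Of 213 alternative values, 177 kept their side and direction or moved by less than the spread between libraries. With TMM factors the median log2 ratio by tags was 0.0028 over all regions and -0.0064 over the 21 regions, with 11 lower. With library size taken as the tags in peaks, the median over the 21 regions became 0.091 by tags, with 4 lower, and 0.0066 by density. That scaling moved the median of all regions from -0.061 to 0.098 by tags and from -0.165 to -0.0035 by density. Under it the fold-change of the region with the most tags turned positive by tags at Ldha (0.032), Oat (0.093) and Cat (0.081), and by density at Hk1 (0.096), Ldha (0.052), Slc16a1 (0.12), Acot7 (0.051), Oat (0.038) and Cat (0.10). With stricter peaks 6 regions were left in all 4 libraries, 2 of them lower by tags (median 0.097), and 0 regions were called in WT only. At that strictness no value could be had for the region with the most tags of Hk2, Ldha, Slc16a1, Acot7, Oat or Cat. Regions called in βRapKO only were 1 with the same number of strongest peaks and 1 with 10 kb upstream of each gene. The cause of these changes was not tested.

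Leaving out each library in turn gave 7 (without WT replicate 2) to 16 regions lower by tags, medians of -0.11 to 0.043 by tags and -0.25 to -0.088 by density, 6 to 8 WT-only and 1 to 5 βRapKO-only regions (the highest of both without βRapKO replicate 2). Over all regions the shares were then 8.43% to 17% and 3.24% to 6.58%. Fold-changes by tags then ran from -0.043 to 0.24 at Hk1, from -0.35 to 0.17 at Oat and from -0.87 to 0.61 at Cat. By density they ran from -0.22 to 0.097 at Hk1, from -0.25 to 0.14 at Slc16a1, from -0.25 to 0.013 at Oat and from -0.40 to 0.19 at Cat. The sign of these differences changed with a single library.

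The labels give no shared source for libraries of the same replicate number, so these were not taken as pairs. Their deviations from the genotype means correlated at 0.047 over all regions but at 0.5 over the 21 regions of the 9 genes, where log2 CPM of each WT library correlated more with the βRapKO library of its own number than with the other (WT replicate 2 at 0.897 against 0.797). With the replicate block in the fit 0 regions of the 9 genes passed by tags and 1 by density, Hk1 region 13 (log2 fold-change -1.07, adjusted p = 0.0111), among 128 of all regions. With tags in peaks as library size and no block its log2 fold-change was -0.90 (adjusted p = 0.603), and without each library in turn it was -1.14 to -0.998, with adjusted p from 0.0941 to 0.252. Tags outside peaks are not known, which limits every statement about regions without a call.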

Other observations

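Regions just outside the 2 kb limit were chosen after their values were seen. The nearest lay 2.29 kb upstream of Hk2, with 42 tags in WT replicate 2 and 38 in βRapKO replicate 1. Upstream of it, 3.44 kb from Hk2, a region had a peak in both βRapKO libraries only, with 55 and 36 tags. A region 7.92 kb upstream of Ldha (chromosome 7, 46832358 to 46833558) had a peak in both WT libraries only, with 53 and 67 tags.

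The region 3.40 kb upstream of Parp3 (chromosome 9, 106480348 to 106484713), over Rrp9, a gene of ribosomal RNA processing, held 12.5 and 8.39 CPM in WT and 5.82 and 6.99 CPM in βRapKO. By tags the groups did not overlap, with a log2 fold-change of -0.70 ± 0.203 (edgeR adjusted p = 0.745). Both βRapKO libraries lay below both WT libraries by tags at 25.3% of all regions tested. Peaks were 4244 and 2138 bp wide in WT and 1947 and 2294 bp wide in βRapKO. Density overlapped, at 2.96 and 3.93 in WT and 2.99 and 3.05 in βRapKO, with a log2 fold-change of -0.17 (edgeR adjusted p = 0.634).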
